A study of Mus musculus with 6 samples.

Results

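The genes described here are 9 components of the cell death machinery of mouse neutrophils: the death receptor genes Fas and Tnfrsf1a, the second TNF receptor gene Tnfrsf1b, the initiator caspase gene Casp8 and its regulator Cflar, the apoptosome scaffold gene Apaf1, and the inhibitor of apoptosis (IAP) genes Xiap, Birc2 and Birc3. They were taken by gene symbol from the series count table, in which each symbol matched a single row, and make up 9 of its 45777 genes. Bone marrow neutrophils were purified on Percoll from C57BL/6 wild-type animals and cultured for 24 h. PGE2 libraries came from cells given prostaglandin E2 at 10 µM, a lipid that signals through G protein-coupled receptors, and vehicle libraries from cells given DMSO. Each group held 3 libraries that the series design calls biological replicates, and the vehicle cells had the same 24 h in culture. The sources used here do not give the age and sex of the mice, or say whether a library pooled several animals.

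Death receptors are cell surface proteins that, once bound by their ligand, gather adaptor proteins and caspase 8 into a complex that can start apoptosis. c-FLIP, the product of Cflar, resembles caspase 8 without its protease activity and competes with it in that complex. A second route runs through mitochondria, where cytochrome c released into the cytosol assembles APAF1 into the apoptosome and activates caspase 9. XIAP binds and blocks caspases directly, while cIAP1 and cIAP2, the products of Birc2 and Birc3, are ubiquitin ligases at the TNF receptors that favour NF-kB signalling over death. Neutrophils are short-lived and die by apoptosis in culture, so these genes sit where survival signals act.

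Of the 9 genes, 5 passed edgeR's quasi-likelihood test between PGE2 and vehicle (adjusted p under 0.05 over 15947 genes): Tnfrsf1b and Birc2 rose, and Tnfrsf1a, Xiap and Apaf1 fell. The changes were modest. Tnfrsf1b was 41.6% and Birc2 39.0% higher with PGE2, while Xiap fell by 28.3%, Tnfrsf1a by 24.5% and Apaf1 by 20.6%. Fas, Cflar, Casp8 and Birc3 did not pass. Over all genes tested the same threshold called 24.4%, with 10.1% higher and 14.3% lower. That balance depended on the setting: 1618 genes rose and 2278 fell, against 2186 that rose and 1752 that fell with library totals alone. On TPM plus 1, where the test was limma and the filter left 12621 genes, 967 rose and 2256 fell. With library totals 2 members rose and 2 fell, since Apaf1 did not pass. The members were deeply counted, with means of 1967 to 21407 reads per library. Among the 4222 genes with a mean count at least as high as the lowest member, 47.6% were called, 13.2% higher and 34.4% lower, so the share of members called lies near that of equally well counted genes. The same 5 genes had groups that did not overlap, as did 42.3% of all genes tested, 20.5% with PGE2 above and 21.8% with PGE2 below. No member changed by 2-fold or more, which 6.31% of all genes did while passing. The number of members passing was 3 without PGE2 replicate 3, without vehicle replicate 2 and without vehicle replicate 3. In each of those 3 cases both rises and the fall of Xiap passed, and Tnfrsf1a and Apaf1 did not. In bulk RNA, fewer cells of a type and less RNA per cell cannot be told apart.

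**Figure D1:**
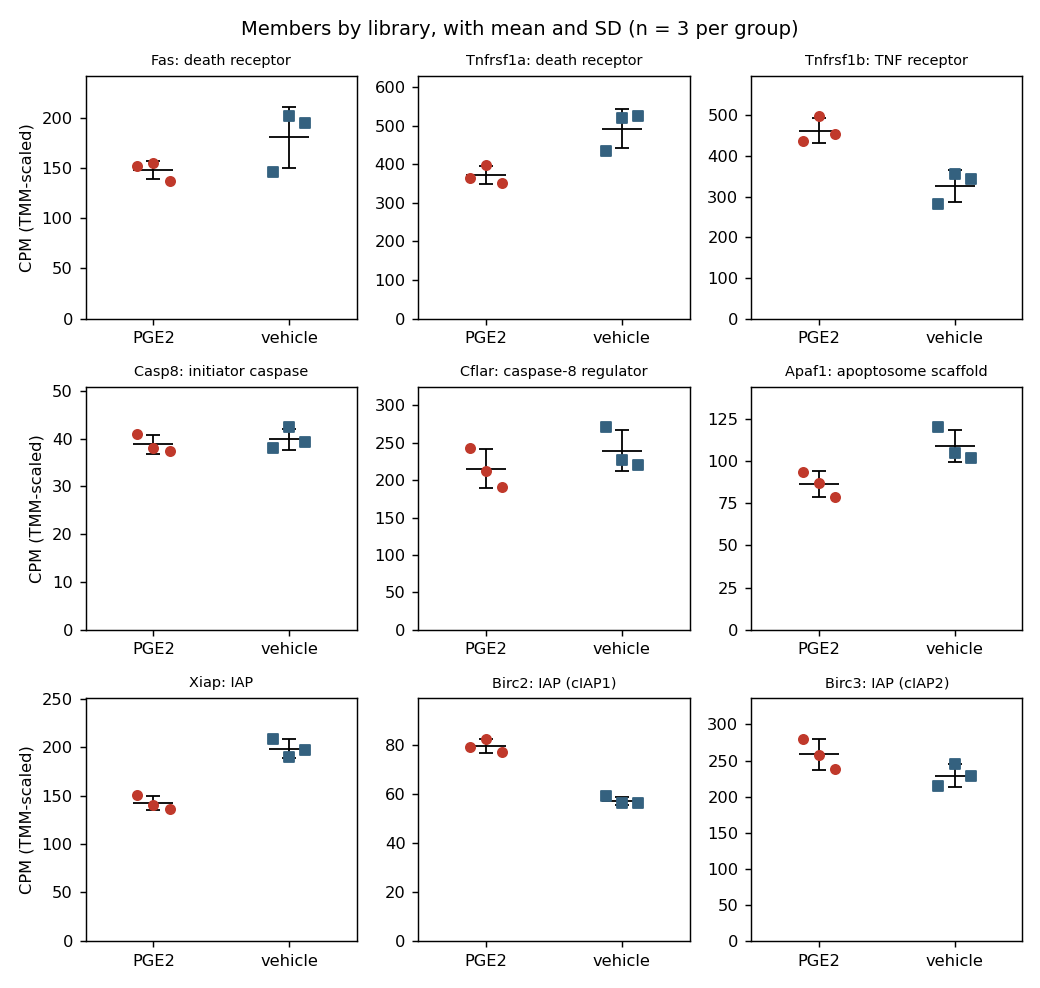
TMM-scaled CPM (vertical axes, each from 0) of the 9 genes in the 3 PGE2 libraries (circles) and the 3 vehicle libraries (squares), with bars for the mean and SD. For Tnfrsf1b and Birc2 all PGE2 libraries lie above all vehicle libraries, for Tnfrsf1a, Apaf1 and Xiap they lie below, and for the other 4 genes the groups overlap.

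The TNF receptor genes moved in opposite directions. Tnfrsf1b encodes TNFR2, which has no death domain and recruits TRAF2 with the cIAPs (gene ID 21938, chromosome 4, 145212368 to 145246870, minus strand, mm10). It had 436, 497 and 453 CPM (read counts scaled to library size with TMM factors) in PGE2 replicates 1, 2 and 3, against 282, 355 and 343 CPM in vehicle replicates 1, 2 and 3. The groups did not overlap. Tnfrsf1b averaged 462 ± 31.5 CPM with PGE2 and 326 ± 39.1 CPM with vehicle (SD, n = 3 each), a log2 fold change of 0.50 ± 0.11 (SE) with an edgeR adjusted p of 0.0117. It passed under all 14 alternative settings.

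Tnfrsf1a encodes TNFR1, the TNF receptor with a death domain (gene ID 21937, chromosome 6, 125349723 to 125362483, plus strand). It had 366, 397 and 352 CPM in PGE2 replicates 1, 2 and 3, against 433, 519 and 524 CPM in vehicle replicates 1, 2 and 3. Every PGE2 library lay below every vehicle library, with vehicle replicate 1 the nearest to them. The log2 fold change was -0.41 ± 0.10, with an edgeR adjusted p of 0.0212. That adjusted p was 0.0696 without PGE2 replicate 3, 0.0888 without vehicle replicate 2 and 0.0737 without vehicle replicate 3, within a range of 0.00102 to 0.0888 over the 14 settings.

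Fas encodes the receptor for Fas ligand, which signals to caspase 8 through the adaptor FADD (gene ID 14102, chromosome 19, 34290647 to 34327775, plus strand). It had 152, 155 and 137 CPM in PGE2 replicates 1, 2 and 3, against 146, 201 and 195 CPM in vehicle replicates 1, 2 and 3. Vehicle replicate 1 lay among the PGE2 libraries, and the other vehicle libraries lay above them. The log2 fold change was -0.29 ± 0.13 and did not pass (edgeR adjusted p = 0.145), with a 95% interval of -0.59 to 0.01. Without vehicle replicate 1 it was -0.41 and passed (edgeR adjusted p = 0.0174), and on the authors' TPM values (transcript abundance scaled per gene length) it was -0.38 and also passed (limma adjusted p = 0.0452, on log2 of TPM plus 1). Less the median of all genes, the log2 fold change of Fas was -0.32 on TPM plus 1 and -0.33 in the main fit. Over the 14 settings the adjusted p of Fas ran from 0.0174 to 0.385.

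Casp8 and Cflar are neighbours on chromosome 1, on the same strand and 36.3 kb apart (Cflar, gene ID 12633, at 58711311 to 58758884 and Casp8, gene ID 12370, at 58795233 to 58847503, plus strand). Casp8 had 41.0, 38.0 and 37.4 CPM in PGE2 replicates 1, 2 and 3, against 38.0, 42.4 and 39.2 CPM in vehicle replicates 1, 2 and 3. Its log2 fold change was -0.04 ± 0.09, with a 95% interval of -0.24 to 0.16 and an edgeR adjusted p of 0.798. With libraries scaled by their totals alone, and without vehicle replicate 2, its sign was positive (0.055 and 0.0083). Cflar had 243, 213 and 191 CPM in PGE2 replicates 1, 2 and 3, against 270.4, 227 and 220.3 CPM in vehicle replicates 1, 2 and 3. The groups overlapped, and replicate 1 was the highest library of both groups. Its log2 fold change was -0.15 ± 0.12, with a 95% interval of -0.42 to 0.12 and an edgeR adjusted p of 0.406. Cflar was lower with PGE2 in each same-numbered pair, with log2 differences of -0.16, -0.09 and -0.21, and did not pass with the replicate number as a block (edgeR adjusted p = 0.122). A p that misses the threshold does not show that these genes were unaffected, and the intervals give the sizes of change that the fit leaves possible.

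Apaf1 encodes the scaffold of the apoptosome (gene ID 11783, chromosome 10, 90989311 to 91082743, minus strand). It had 93.6, 87.2 and 78.4 CPM in PGE2 replicates 1, 2 and 3, against 119.9, 105 and 102 CPM in vehicle replicates 1, 2 and 3. The groups did not overlap, and replicate 1 was again the highest library of both groups. Apaf1 averaged 86.4 ± 7.62 CPM with PGE2 and 109 ± 9.71 CPM with vehicle, a log2 fold change of -0.33 ± 0.10. Its edgeR adjusted p of 0.0470 lay just under the threshold and ranged from 0.00603 to 0.142 over the settings. It was 0.104 without PGE2 replicate 2, 0.141 without PGE2 replicate 3, and 0.134, 0.0962 and 0.0620 without vehicle replicates 1, 2 and 3. The log2 fold change stayed below zero in all of these. Apaf1 overlaps Ikbip on the opposite strand, which had 1183 counts over the 6 libraries, against 4209 to 5496 per library for Apaf1. The sources used here do not say whether counting was stranded.

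Among the IAP genes Xiap fell, Birc2 rose and Birc3 did not pass. Xiap encodes the IAP that binds and blocks caspases (gene ID 11798, chromosome X, 42059613 to 42109664, plus strand). It had 150.1, 141 and 136 CPM in PGE2 replicates 1, 2 and 3, against 209, 190.1 and 197 CPM in vehicle replicates 1, 2 and 3. The gap between the groups was wider than the range within either. Xiap averaged 142 ± 7.18 CPM with PGE2 and 199 ± 9.53 CPM with vehicle, a log2 fold change of -0.48 ± 0.08 (edgeR adjusted p = 0.00402), and passed under all 14 settings.

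Birc2 and Birc3 lie side by side on chromosome 9, 10.3 kb apart on the minus strand (Birc2, gene ID 11797, at 7818226 to 7837131 and Birc3, gene ID 11796, at 7847468 to 7873205). Birc2 had 79.2, 82.7 and 77.2 CPM in PGE2 replicates 1, 2 and 3, against 59.2, 56.4 and 56.3 CPM in vehicle replicates 1, 2 and 3. The groups lay far apart relative to the spread within them. Birc2 averaged 79.7 ± 2.80 CPM with PGE2 and 57.3 ± 1.67 CPM with vehicle, a log2 fold change of 0.48 ± 0.08 (edgeR adjusted p = 0.00341). It passed under 12 of the 14 settings. On log2 of TPM the limma adjusted p was 0.0524 with 1 added and 0.0533 with 0.1 added, with log2 fold changes of 0.35 and 0.36. Less the median of all genes, they were 0.42 and 0.44, against 0.44 in the main fit.

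Birc3, which codes for the close paralog of the Birc2 product and is a known NF-kB target, had 280.5, 257 and 238 CPM in PGE2 replicates 1, 2 and 3, against 214, 245 and 228 CPM in vehicle replicates 1, 2 and 3. The groups overlapped at PGE2 replicate 3 and vehicle replicate 2. Its log2 fold change was 0.17 ± 0.09, with a 95% interval of -0.04 to 0.39 and an edgeR adjusted p of 0.22, and it passed under none of the 14 settings (adjusted p from 0.0646 to 0.624). It was higher with PGE2 in each same-numbered pair, with log2 differences of 0.39, 0.07 and 0.06, and did not pass under the replicate block (edgeR adjusted p = 0.16). The sources used here do not say how reads shared by these paralogs were divided.

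**Figure D2:**
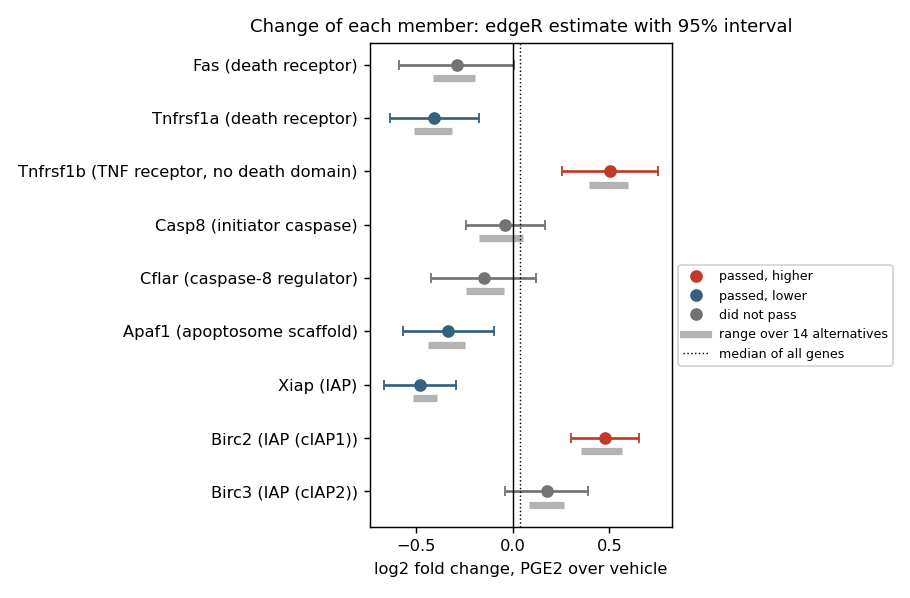
Log2 fold change of PGE2 over vehicle (horizontal axis) for each gene, with edgeR's 95% interval as bars and, in grey below each, the range of the estimate over 14 alternative settings. The dotted line marks the median of all genes tested, 0.04. The grey ranges stay on the side of their estimate for all genes but Casp8.

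The promoters of the IAP genes are shown to set the sequence beside the values of these genes. PGE2 can raise cAMP, which acts through the cAMP response element (CRE) in DNA. RefSeq gives 12 windows of 300 bases for the 9 genes (GRCm38.p6, 250 bases before to 50 after a start site), more than 1 for Birc2 and Xiap. The motifs were chosen after the expression values were seen. They were the CRE (TGACGTCA), its core TGACG, the AP-1 motif TGANTCA and the NF-kB consensus, each searched on both strands. The sequences read 5′ to 3′ on the gene's strand, with motif matches in capitals. Birc2 and Xiap are each shown by the window that holds a match to the longest motif found there, and Tnfrsf1b, the other gene that rose, is added.
Birc2, chr9:7837008-7837307, minus strand: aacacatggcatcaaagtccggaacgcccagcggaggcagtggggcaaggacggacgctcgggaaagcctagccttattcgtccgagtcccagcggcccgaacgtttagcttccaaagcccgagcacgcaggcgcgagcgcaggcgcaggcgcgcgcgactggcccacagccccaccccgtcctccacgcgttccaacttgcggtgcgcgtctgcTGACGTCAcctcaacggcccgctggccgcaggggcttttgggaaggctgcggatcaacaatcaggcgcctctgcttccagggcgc
Birc3, chr9:7873121-7873420, minus strand: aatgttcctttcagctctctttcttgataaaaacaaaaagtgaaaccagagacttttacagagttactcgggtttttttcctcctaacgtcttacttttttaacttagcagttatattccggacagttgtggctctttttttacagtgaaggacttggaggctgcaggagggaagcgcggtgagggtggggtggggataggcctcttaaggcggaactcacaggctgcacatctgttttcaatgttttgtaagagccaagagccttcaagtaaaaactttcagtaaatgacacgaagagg
Xiap, chrX:42068148-42068447, plus strand: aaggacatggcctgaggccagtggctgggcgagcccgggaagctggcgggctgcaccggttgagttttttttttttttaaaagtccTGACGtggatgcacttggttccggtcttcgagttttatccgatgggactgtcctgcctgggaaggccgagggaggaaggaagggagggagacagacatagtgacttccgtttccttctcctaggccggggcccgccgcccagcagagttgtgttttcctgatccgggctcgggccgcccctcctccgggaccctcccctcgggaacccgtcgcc
Tnfrsf1b, chr4:145246821-145247120, minus strand: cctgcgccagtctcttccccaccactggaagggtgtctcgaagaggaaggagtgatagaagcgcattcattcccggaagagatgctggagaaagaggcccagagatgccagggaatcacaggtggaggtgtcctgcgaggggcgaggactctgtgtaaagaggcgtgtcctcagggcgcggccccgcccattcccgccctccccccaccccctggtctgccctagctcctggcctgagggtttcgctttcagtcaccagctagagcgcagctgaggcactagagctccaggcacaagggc
The full CRE stands 35 to 28 bases before the start site of the Birc2 window shown, and in no other window of the 9 genes. RefSeq gives Birc2 more than 1 start site, and that distance holds for this window only. The 5′ end of Birc2 in the deposited coordinates, 7837131, lies in the same window, upstream of the match. Over all 32851 RefSeq windows the full CRE occurs in 1.79%. That share is per window, while 12 windows were searched here, and the windows were not matched for CpG content. The core TGACG, which the full CRE contains on both strands, also occurs in the other Birc2 window and in the Xiap window shown, and in 20.8% of all windows. The AP-1 motif occurs in the Fas window (7.81% of all windows) and the NF-kB consensus in none of the 12 (4.51% of all windows). The Birc2 window shown holds 34 CpG dinucleotides and the Birc3 window 7, against a median of 7 over all windows. A match is a description of the letters in the window and says nothing of which factor was bound.

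In level per gene length, the receptor genes and Birc3 stood above the other 5 genes in both groups. With PGE2, Tnfrsf1a was the most abundant at 279 ± 10.2 TPM, then Tnfrsf1b at 152 ± 5.50, Fas at 143 ± 17.1 and Birc3 at 141 ± 16.6 TPM. The ranges of Tnfrsf1b, Fas and Birc3 overlapped each other in turn in the PGE2 libraries. With vehicle the order was Tnfrsf1a at 399 ± 19.9, Fas at 187 ± 17.2, Birc3 at 132 ± 4.90 and Tnfrsf1b at 116 ± 6.87 TPM, with no overlap between neighbours in that order. Cflar followed in both groups, at 57.6 ± 5.74 TPM with PGE2 and 68.6 ± 11.4 TPM with vehicle. Birc2 stood at 37.6 ± 2.16 TPM with PGE2 and 29.2 ± 2.67 TPM with vehicle, and Xiap at 34.1 ± 3.04 TPM with PGE2 and 48.6 ± 3.94 TPM with vehicle. Their ranges overlapped in the PGE2 libraries, while with vehicle all Xiap values lay above all Birc2 values. Casp8, at 24.8 ± 2.79 TPM with PGE2 and 27.9 ± 0.424 TPM with vehicle, and Apaf1, at 21.5 ± 2.58 TPM with PGE2 and 29.3 ± 4.51 TPM with vehicle, were the least abundant with PGE2.

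**Figure D3:**
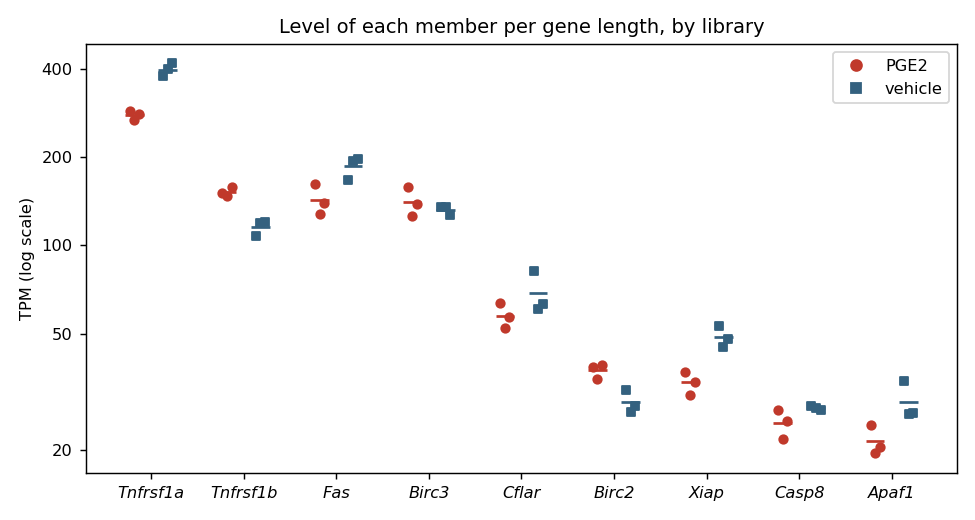
Level of each gene in TPM (log axis) in the 3 PGE2 libraries (circles) and the 3 vehicle libraries (squares), with a line at each group mean and the genes ordered by their PGE2 mean. Tnfrsf1a is the highest of the 9 in every library.

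Ratios within a library do not depend on its scaling, and 5 were compared with a two-sided exact permutation test, whose smallest possible p is 0.1 with 3 libraries against 3. The ratio of Tnfrsf1b to Tnfrsf1a was 0.523, 0.550 and 0.565 in PGE2 replicates 1, 2 and 3, against 0.285, 0.30 and 0.287 in vehicle replicates 1, 2 and 3. It was thus 1.88-fold higher with PGE2, with groups far apart (exact p = 0.1, adjusted p = 0.167 over the 5 ratios). The ratio of Birc3 to Xiap averaged 4.14 ± 0.130 with PGE2 and 2.73 ± 0.231 with vehicle (SD, n = 3 each), without overlap (exact p = 0.1, adjusted p = 0.167). For Birc3 to Birc2 the ratio averaged 3.75 ± 0.322 with PGE2 and 4.55 ± 0.400 with vehicle, and the groups did not overlap, though PGE2 replicate 1 at 4.12 came close to vehicle replicate 1 at 4.20 (exact p = 0.1, adjusted p = 0.167). With these numbers the test could not reach 0.05 for any of the 5 ratios, so it cannot decide whether a ratio differed. A difference between the responses of Birc2 and Birc3 is likewise not shown. The ratio of Cflar to Casp8 mRNA averaged 2.32 ± 0.0644 with PGE2 and 2.45 ± 0.374 with vehicle (exact p = 0.9), and Fas to Tnfrsf1a 0.512 ± 0.0431 with PGE2 and 0.467 ± 0.0242 with vehicle (exact p = 0.2, adjusted p = 0.25). Without vehicle replicate 1, whose Cflar to Casp8 ratio of 2.88 was the highest, the log2 difference of that ratio was 0.050 in place of -0.071.

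**Figure D4:**
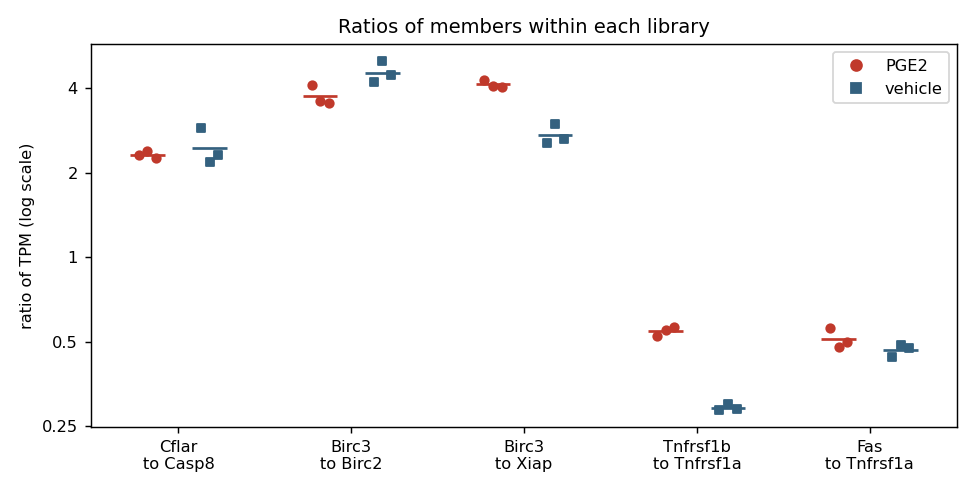
Ratio of the TPM of paired genes within each library (log axis), with PGE2 libraries as circles, vehicle libraries as squares and a line at each group mean. The ratios Tnfrsf1b to Tnfrsf1a and Birc3 to Xiap are higher in all PGE2 libraries than in any vehicle library.

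The rest of the pathway was described with lists taken from textbook knowledge of it, and chosen with earlier results of these data known. Of 93 genes tested in 9 such lists, 9 rose and 18 fell, 29.0% in all beside 24.4% of all genes, and their median log2 fold change was 0.02, against 0.04 for all genes. The lists were not matched for depth. Among the 4222 genes counted at least as deeply as the lowest member, 47.6% were called, 13.2% higher and 34.4% lower. The counts of each list in the main fit stand beside 10.1% of all genes higher and 14.3% lower. With the replicate number as a block, 24 of the 93 genes rose and 25 fell. With library totals 15 rose and 16 fell, and without vehicle replicate 2 only 4 rose. The block called 2648 of all 15947 genes higher and 3009 lower, and block counts of each list stand beside those. Of 6 death ligand genes 2 fell and none rose, with a median of -0.49. They were Tnf, the ligand of both TNF receptors, at a log2 fold change of -1.33 ± 0.17, and the lymphotoxin gene Ltb at -0.87 ± 0.24, whose groups overlapped. The Fas ligand gene Fasl had 1.56, 4.09 and 3.14 CPM in PGE2 replicates 1, 2 and 3, against 0.305, 2.27 and 2.11 CPM in vehicle replicates 1, 2 and 3, and did not pass (edgeR adjusted p = 0.351). Fasl was higher with PGE2 in each same-numbered pair, and with the replicate number as a block it rose, with a log2 fold change of 1.12 ± 0.34 (edgeR adjusted p = 0.0349). The block thus gave 1 ligand gene that rose and 3 that fell. Ltb did not pass, leaving 1 fall, without PGE2 replicate 1 (edgeR adjusted p = 0.0833), PGE2 replicate 2 (0.0915), vehicle replicate 2 (0.0934) or vehicle replicate 3 (0.0900).

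Of 12 other receptor genes of the family 4 rose and 3 fell, with a median of 0.70. Tnfrsf23 and Tnfrsf22, which encode mouse decoy receptors for TRAIL, rose by 1.14 ± 0.16 and 0.93 ± 0.22 on the log2 scale, and the co-stimulatory receptor gene Cd40 rose by 0.63 ± 0.17. Tnfrsf26, their neighbour and close relative, was the fourth, so reads may be shared within that cluster on chromosome 7. Tnfrsf14 fell by 0.87 ± 0.08, the death receptor gene Tnfrsf21 by 0.79 ± 0.12 and the lymphotoxin beta receptor gene Ltbr by 0.49 ± 0.09. The rises numbered 7 with the block, 1 without vehicle replicate 1, 1 without vehicle replicate 2 and 2 on TPM. Tnfrsf22 did not pass on TPM (limma adjusted p = 0.0572) or without PGE2 replicate 2, vehicle replicate 1 or vehicle replicate 2 (edgeR adjusted p = 0.0562, 0.0563 and 0.0659). Cd40 did not pass on TPM (limma adjusted p = 0.105), nor without PGE2 replicate 1 or any vehicle replicate (edgeR adjusted p of 0.0717, 0.0955, 0.0886 and 0.0623).

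Of 24 genes for receptor adaptors and ubiquitin enzymes, 1 rose and 4 fell (2 and 7 with the block), with a median of 0.06. Traf1, which binds TNFR2 and the cIAPs, rose by 1.19 ± 0.26 on the log2 scale. Traf3, a brake on non-canonical NF-kB signalling that the cIAPs ubiquitinate, fell by 0.95 ± 0.11, Tnip1 by 0.65 ± 0.10 and the IKK subunit gene Ikbkg by 0.54 ± 0.09. Ikbkg overlaps the abundant G6pdx on the opposite strand, so its value is uncertain. Without PGE2 replicate 3 the rises numbered 2. Fadd was at 4.21, 4.02 and 5.25 CPM in PGE2 replicates 1, 2 and 3, against 4.15, 3.79 and 4.27 CPM in vehicle replicates 1, 2 and 3 (edgeR adjusted p = 0.611). The kinase gene Ripk1, at a log2 fold change of -0.23 ± 0.10, did not pass (edgeR adjusted p = 0.137) but fell with the replicate number as a block (edgeR adjusted p = 0.0339). Neither fit called Tab2, the most abundant of the list, at -0.10 ± 0.09.

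Of 7 other caspase genes, 2 fell and none rose, with a median of -0.11. The falls numbered 1 without PGE2 replicate 2 or 3 or vehicle replicate 2 or 3. Casp9, whose product the apoptosome activates, was at -0.36 ± 0.10 (edgeR adjusted p = 0.0300). It did not pass without PGE2 replicate 2 (0.0977) or 3 (0.10), without vehicle replicate 2 (0.110) or 3 (0.0897), or with scaling by library totals (0.104). Among 7 genes of the apoptosome and of IAP antagonists, 1 rose, with a median of 0.23. It was Diablo, whose product SMAC frees caspases from XIAP, with 28.0, 30.5 and 30.1 CPM in PGE2 replicates 1, 2 and 3, against 20.1, 21.0 and 20.3 CPM in vehicle replicates 1, 2 and 3. Its log2 fold change was 0.53 ± 0.09 (edgeR adjusted p = 0.00438), and 2 genes rose with the block and without vehicle replicate 1. On TPM 1 gene rose and 1 fell. Htra2, the most abundant of them, was at -0.15 ± 0.09 and did not pass. Htra2 overlaps the abundant Aup1 on the opposite strand, so its value is uncertain.

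Of 6 other IAP genes, 2 fell and none rose, with a median of -0.52. Birc6, which encodes a giant IAP with ubiquitin-conjugating activity, averaged 108 ± 8.79 CPM with PGE2 and 163 ± 24.2 CPM with vehicle, a log2 fold change of -0.60 ± 0.12. Naip2, which encodes an inflammasome sensor with IAP repeats and has close paralogs, was at -0.57 ± 0.11. With the block, and with DESeq2, 1 rose and 4 fell, and 4 fell without vehicle replicate 3, while 1 rose without vehicle replicate 1. Of 12 genes of necroptosis and caspase substrates, 1 rose and 3 fell (3 and 4 with the block), with a median of -0.18. Lmnb1, which encodes lamin B1, averaged 750.0 ± 54.6 CPM with PGE2 and 175 ± 8.50 CPM with vehicle, a log2 fold change of 2.1 ± 0.09. Gsdme, a gasdermin gene, fell by 1.33 ± 0.13, the scramblase gene Xkr8 by 0.96 ± 0.18 and the nucleic acid sensor gene Zbp1 by 0.66 ± 0.16 on the log2 scale. Zbp1 did not pass without PGE2 replicate 3, vehicle replicate 2 or vehicle replicate 3 (edgeR adjusted p of 0.0633, 0.0525 and 0.0719). The rises of this list numbered 2 without each of PGE2 replicate 1 and vehicle replicate 1, and the falls 2 without the libraries just named for Zbp1.

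Of 13 NF-kB subunit and feedback genes, 2 rose and 2 fell, with a median of 0.29. Bcl3 and Nfkbiz, which encode nuclear IkB proteins, rose by 0.59 ± 0.16 and 0.35 ± 0.09, and Tnfaip2 and Nfkb1 fell by 0.66 ± 0.10 and 0.38 ± 0.09 on the log2 scale. Bcl3 did not pass without PGE2 replicate 1 or 2 or vehicle replicate 2 (edgeR adjusted p of 0.0553, 0.0925 and 0.0541). Nfkbiz did not pass without PGE2 replicate 2 or any vehicle replicate, or on TPM (limma adjusted p = 0.340), nor Nfkb1 without PGE2 replicate 2 or 3 or vehicle replicate 2 (edgeR adjusted p of 0.0578, 0.0597 and 0.0731) or with library totals (0.0604). With the block 8 rose and 2 fell, while none rose without PGE2 replicate 2 or vehicle replicate 2 and 5 rose and 1 fell when libraries were scaled by their totals. The rises numbered 1 without PGE2 replicate 1, vehicle replicate 1 or vehicle replicate 3 and 1 on TPM, and the falls 1 without PGE2 replicates 2 or 3 or vehicle replicate 2. Nfkbia, the most abundant of them, averaged 285 ± 5.28 CPM with PGE2 and 281 ± 35.1 CPM with vehicle (edgeR adjusted p = 0.917). Of 6 genes of receptor shedding, edgeR and DESeq2 called 0. An unadjusted edgeR p under 0.05 was found for 1 of them, beside 5902 of all 15947 genes tested. The most abundant of these, Rhbdf2, was at -0.11 ± 0.09.

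**Figure D5:**
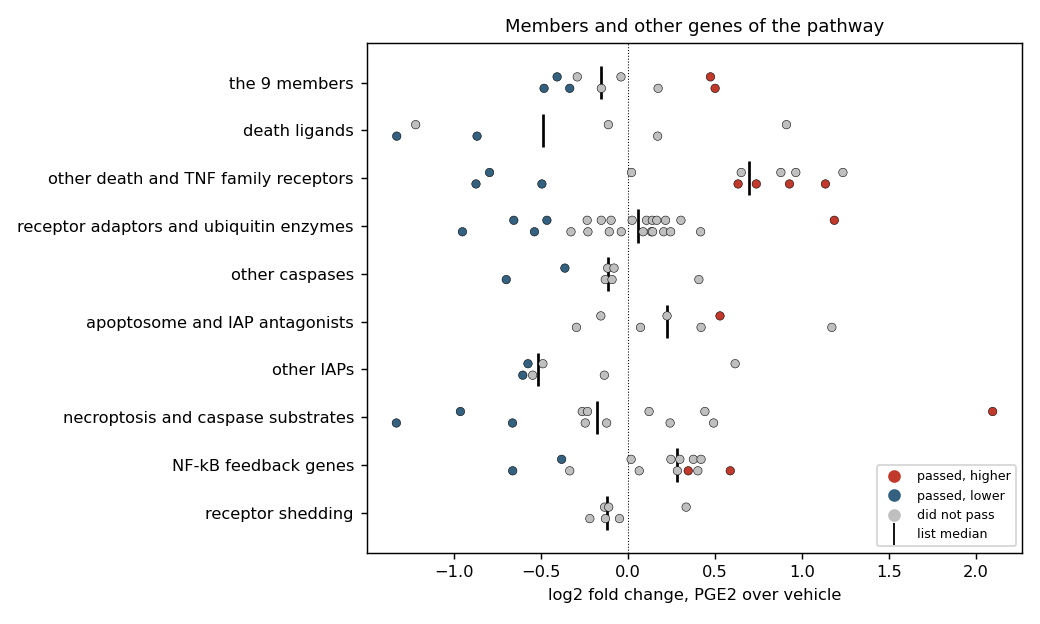
Log2 fold change of PGE2 over vehicle (horizontal axis) of the 9 members and of the genes of 9 pathway lists, each point a gene, coloured by the edgeR call, with a bar at each list's median. The members lie within -0.48 to 0.50, and Lmnb1 at 2.1 is the farthest point to the right.

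Genes whose pattern over the 6 libraries was most like a member's were sought by Pearson's r of log2 CPM. The search covered 10383 genes with a mean count of at least 100. Provisional symbols (Gm and a digit, ending in Rik or starting with LOC) were left out. The closest were Hdc, which encodes histidine decarboxylase, for Birc2 (r = 0.999), Aqp9 for Tnfrsf1b (r = 0.996), Tbc1d10b for Tnfrsf1a (r = 0.996), Cdc14a for Xiap (r = 1.000) and Cep350 for Apaf1 (r = 0.999). For the members that did not pass they were Cdc42ep2 for Fas (r = 0.979), Gfm2 for Cflar (r = 0.991), Seh1l for Casp8 (r = 0.977) and Shld3 for Birc3 (r = 0.988). The points share libraries, depth and a group difference, and 1054 genes reached an r of 0.95 with Xiap alone, so these values only describe the likeness.

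The libraries held 42091346 to 56238941 counted reads and 18242 to 19511 genes with at least 1 read. Neutrophil markers reached sums of 231679 to 248677 TPM in the PGE2 libraries and 231919 to 241347 TPM in the vehicle libraries. S100a9 and S100a8 made up most of these sums and did not pass, so the sums say little of the other markers. Of the 8 markers 4 fell: Mmp8 by 0.98, Csf3r by 0.93, Ly6g by 0.87 and Cxcr2 by 0.35 on the log2 scale. Ngp, at -0.95, and Retnlg, at 0.01, did not pass. Markers of other cells also moved with the groups. The part of either kind of marker in the members' changes was not tested. Of 5 B lineage markers, led by Cd79a and Cd79b, 4 rose, and their sum was 607 to 1054 TPM with PGE2 and 412 to 588 TPM with vehicle. Erythroid markers, led by Hbb-bs and Hba-a1, reached sums of 26123 to 75544 TPM with PGE2 and 8066 to 33794 TPM with vehicle. Of these 5 markers edgeR and DESeq2 called 0. An unadjusted edgeR p under 0.05 was found for 3 of them, beside 5902 of all 15947 genes tested. All 5 rose with the replicate number as a block, as did 2648 of all genes. Of 6 monocyte and macrophage markers, led by Ly6c2 and Csf1r, 2 fell (sums of 781 to 1324 TPM with PGE2 and 1255 to 2036 TPM with vehicle), and of 4 eosinophil markers, led by Prg2 and Epx, 3 fell (83.5 to 156 TPM with PGE2 and 215 to 373 TPM with vehicle). T and NK markers (Cd3g, Cd3e), mast cell and basophil markers (Mcpt8, Cpa3), dendritic markers (Siglech, Flt3) and platelet markers (Pf4, Itga2b) summed to at most 80.1, 86.8, 14.9 and 31.8 TPM in a PGE2 library and 67.8, 128, 18.6 and 31.1 TPM in a vehicle library, and of these 16 genes 1 fell. None of the marker genes was at 0 in all libraries.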

How the data were processed

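Bulk RNA was sequenced in 6 libraries with a TruSeq mRNA kit, called Standard in one label and Stranded in another. The deposited table gives the authors' estimated counts and TPM per gene on mm10. Bowtie2, STAR, StringTie 2.1.3b, RSEM and DESeq2 are named, without their roles, per the submitters' processing notes. Its 18 columns of 6 other libraries were not used. Estimated counts were rounded and tested in edgeR 4.0.16 under R 4.3.3 (quasi-likelihood test, TMM scaling, Benjamini-Hochberg threshold 0.05). The test covered the 15947 genes that reached 10 counts in 3 or more libraries. The biological coefficient of variation was 22.4%. The fit was also run on simulated counts with known fold changes and no replicate effect. There its median log2 fold changes were checked against those set, and the rate of false calls was not checked. Alternatives used DESeq2 1.42.0, limma 3.58.1 on log2 of TPM plus a pseudocount of 1 or 0.1, other filters and scalings, a replicate block and each library left out.

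Deviations of same-numbered libraries from their group means correlated at 0.258, 0.174 and 0.187, so the numbers were used as a block in an alternative fit. The main fit, its calls and its shares of all genes did not pair libraries. With the block 5657 genes passed, 2648 higher and 3009 lower, against 3896 in the main fit. The sources used here do not say what the numbers stand for. Members and lists were chosen with earlier results of these data known. From each list the text names the most abundant gene and up to 3 genes per direction with the smallest adjusted p. Fasl, Fadd, Ripk1 and Tnfrsf26 lie outside that rule and were named after their values were seen. Some genes that the rule names are not reported here. Coordinates are those of the deposited table, and promoter sequences come from RefSeq on GRCm38.p6.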

Additional observations from a re-analysis of the deposited data

How the results depend on the processing

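The 14 alternatives changed no sign among the members except for Casp8 (0.055 with library totals, and -0.071 to 0.0083 with a library left out). The log2 difference of the ratio of Cflar to Casp8 ran from -0.15 to 0.050 with a library left out. Nfkbia ran from -0.071 to 0.083 and was -0.084 on TPM with either pseudocount. None of these passed a test in the main setting, and the cause was not tested. Blocking on the replicate number gave 2648 genes that rose, against 1618 without it, and 49 pathway genes passed, 24 of them higher. The block changed no call among the members. On TPM 967 genes rose with a pseudocount of 1 and 953 with 0.1, and 1 member rose with each. With library totals 15 pathway genes rose. A minimum log2 fold of 1 left 1006 genes (404 higher, 602 lower), 5 pathway genes (3 higher, 2 lower) and 0 members, 0 higher and 0 lower. With a library left out, 1005 to 1541 genes rose, 3 to 5 members passed, 1 to 3 of them lower, and 4 to 10 pathway genes rose. The median log2 fold change of all genes was 0.04, 0.13 with library totals and -0.06 or -0.08 on TPM. Every member had a mean of at least 1967 counts per library, so the spread among 3 libraries per group, more than depth, sets the precision.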
